A study of Mus musculus with 22 samples.

Results

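The 10 genes described here encode enzymes that make superoxide, hydrogen peroxide and nitric oxide in epithelium, together with their partner subunits and the enzymes of the tetrahydrobiopterin (BH4) cofactor. They were chosen by name, as Nox1, Noxo1, Noxa1 and Cyba (the NOX1 oxidase), Duox2 and Duoxa2 (the dual oxidase), Nos2 (inducible nitric oxide synthase), Gch1 and Qdpr (BH4) and Xdh (xanthine oxidoreductase), out of 52636 genes in the table of RNA levels. All 10 were found and all 10 passed the filter on low values in every comparison. RNA was sequenced from organoids, which are epithelial cultures that grow from intestinal stem cells in a gel, of the duodenum of CD1 outbred wild-type mice aged 2 months, and the question was how cold atmospheric plasma (CAP), an ionised gas rich in reactive oxygen and nitrogen species, changes them. No animal, control or treated, carried a transgene or a deletion.

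The 22 libraries came from 4 organoid lines, each made from 1 mouse and numbered 1 to 4 here. Untreated organoids of all 4 lines were sequenced (n = 4), and lines 1, 2 and 4 were also sequenced in each of 6 treated groups (n = 3 each), so the libraries of a group came from different mice and the same mice recurred in every group. A helium plasma jet at a moderate setting was used throughout. Direct CAP was given to the culture at day 1, with the medium changed after 30 min or after 24 h. Indirect CAP was medium taken from a treated culture and put on untreated organoids, and plasma-activated medium (PAM) was medium treated with no organoids in it, and their addition began on day 1 or on day 2. The study's methods give these 4 groups an exposure of 24 h, while the labels of the libraries give 30 min for the groups from day 1 and 24 h for those from day 2. The methods are followed here. For the groups exposed for 24 h, the study describes a common endpoint. Groups from day 1 had a further 24 h in fresh medium before it. Groups from day 2 were collected as exposure ended, and their medium had been made on day 1. Start day, time in fresh medium and age of the medium therefore cannot be told apart between groups from day 2 and day 1. Whether the 30 min group was collected at once or at the end of the culture is not certain. Line 1 was at passage 12 and line 2 at passage 14, and the labels put lines 3 and 4 at passage 4. The study lists male mice for the lines at passages 12 and 14 and female mice for the low-passage lines of this experiment. Line, sex and passage therefore cannot be told apart where line 4 differs from lines 1 and 2.

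NADPH oxidases pass electrons from NADPH to oxygen. NOX1 and DUOX2 are both forms found in intestinal epithelium. NOX1 works with a membrane partner (the Cyba product), an organiser (NOXO1), an activator (NOXA1) and the small GTPase RAC1. DUOX2 releases hydrogen peroxide at the cell surface and needs the maturation factor DUOXA2 to leave the endoplasmic reticulum. Inducible nitric oxide synthase makes nitric oxide from arginine and depends on BH4, which GTP cyclohydrolase I (Gch1) starts to build and dihydropteridine reductase (Qdpr) regenerates.

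Values are CP20M, the read count of a gene scaled to 20.0 M reads in the library (M for mega) and not divided by gene length. The study's own definition of the unit divides by transcript length, but the deposited values of each library sum to 20.0 M without that step, and the levels per kilobase below rest on this reading. Between 19.76 and 28.68 M reads per library were estimated from the spacing of low values, so a value of 20 rests on about as many reads and counting error alone is large there. Summed over 7 epithelial markers, the libraries ranged from 92678 to 158932, against 288 to 437 over 7 immune markers and 28 to 100 over 6 stromal markers. Of the immune markers, Ptprc, Adgre1 and Cd3e stayed below the filter and Csf1r gave most of the sum. After group means were removed, treated libraries of the same line resembled each other (median r = 0.564 over 45 pairs, lowest 0.219), as did untreated and treated line 4 (median 0.597). The untreated libraries of lines 1 and 2 were less like the treated libraries of their own line (median r = 0.131) than like those of the other line (median 0.422). Their labels are kept, and results without them are given beside those that change. Fold changes are log2 differences of log2(CP20M + 1), and a change counts as past the threshold where limma's p, adjusted by Benjamini-Hochberg over all genes tested, is under 0.01 and the log2 difference is 1 or more in size. In bulk RNA, a change in the number of cells of a type cannot be told apart from a change in RNA per cell.

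In untreated organoids, the levels per kilobase of exon ordered the 10 genes from Qdpr to Duoxa2. Qdpr stood at 1208 ± 136 CP20M per kb (mean ± SD, n = 4), followed by Cyba at 865 ± 316, Nox1 at 480 ± 152, Noxo1 at 404 ± 59.3, Xdh at 374 ± 108 and Noxa1 at 233 ± 77.3. A lower set held Gch1 at 72.3 ± 24.8, Duox2 at 62.1 ± 27.8, Nos2 at 42.0 ± 32.9 and Duoxa2 at 27.0 ± 14.1. Within each set, the ranges of neighbouring genes overlapped, and the gap lay between Noxa1, at 168 CP20M per kb in its lowest library, and Gch1, which reached that level in no library. The NOX1 oxidase subunits were all in the upper set and both dual oxidase genes in the lower.

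**Figure D1:**
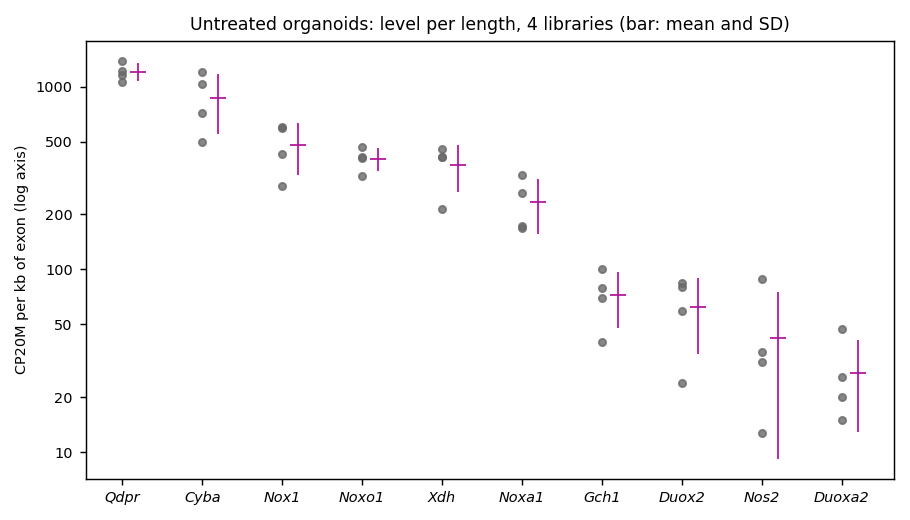
Level of each gene in the 4 untreated libraries, in CP20M per kb of exon on a log axis. Points are libraries and bars the mean and SD. The 6 genes from Qdpr to Noxa1 sit above the 4 genes from Gch1 to Duoxa2, with no overlap between Noxa1 and Gch1.

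The bases before the start of Gch1, the gene that rose most evenly, of Nox1 and Noxa1, which fell, and of Duoxa2, which moved with Duox2, are shown as context. RefSeq windows (GRCm38.p6) of 250 bases before to 50 after the start were found for 8 of the 10 genes, and not for Nos2 and Xdh. They were searched on both strands for AP-1 (TGANTCA), STAT (TTCNNNGAA), the NF-kB consensus, the antioxidant response element (TGACNNNGC) and TCF/LEF (TTCAAAG), of which the AP-1 and antioxidant response element letters can overlap. The 4 windows below were the only ones of the 8 with a match, and only the 250 bases before the start are printed, 5′ to 3′ on the gene's strand, with the match in capitals. Noxa1 lies at chr2:25095206-25095455 on the minus strand, Duoxa2 at chr2:122298650-122298899 on the plus strand, Gch1 at chr14:47189414-47189663 on the minus strand and Nox1 at chrX:134111855-134112104 on the minus strand.
Nox1: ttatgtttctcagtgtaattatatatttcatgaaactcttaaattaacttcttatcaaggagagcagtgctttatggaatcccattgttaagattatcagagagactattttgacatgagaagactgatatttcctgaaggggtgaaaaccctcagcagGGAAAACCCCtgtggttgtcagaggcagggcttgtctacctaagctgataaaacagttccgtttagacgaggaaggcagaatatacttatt
Noxa1: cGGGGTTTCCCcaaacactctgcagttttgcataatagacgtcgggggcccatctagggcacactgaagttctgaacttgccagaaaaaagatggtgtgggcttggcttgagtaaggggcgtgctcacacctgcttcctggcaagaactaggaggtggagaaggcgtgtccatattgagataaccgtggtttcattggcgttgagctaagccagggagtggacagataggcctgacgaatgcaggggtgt
Duoxa2: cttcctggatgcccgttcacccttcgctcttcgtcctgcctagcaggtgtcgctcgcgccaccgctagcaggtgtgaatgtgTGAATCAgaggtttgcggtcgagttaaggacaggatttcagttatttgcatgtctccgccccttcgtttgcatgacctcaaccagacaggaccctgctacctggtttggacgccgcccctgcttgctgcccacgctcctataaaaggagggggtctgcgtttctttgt
Gch1: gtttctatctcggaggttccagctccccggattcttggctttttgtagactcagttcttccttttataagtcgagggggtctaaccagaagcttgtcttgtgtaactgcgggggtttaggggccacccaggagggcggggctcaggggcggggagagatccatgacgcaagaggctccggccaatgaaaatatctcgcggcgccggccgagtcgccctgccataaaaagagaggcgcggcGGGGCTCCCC
The capitals mark an NF-kB match 91 bases before the start of Nox1, on the opposite strand, another at the far end of the Noxa1 window at base 249 before the start, an AP-1 match 168 bases before Duoxa2, and an NF-kB match that ends at the start of Gch1. Over 32817 windows, 7.81% held the AP-1 letters, 8.29% STAT, 8.46% the NF-kB consensus, 12.4% the antioxidant response element and 5.14% TCF/LEF. These are matches of letters and no binding was measured. In GENCODE vM21 the Nox1 gene body (chrX:134086421-134221956) reaches beyond this start, so the Nox1 window is intronic to a longer transcript, while no exon overlaps the printed bases of the other 3.

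Exposure for 24 h from day 1 was taken first, as direct CAP for 24 h, indirect CAP and PAM from day 1 together (9 libraries) against untreated (4 libraries). Lines 1, 2 and 4 each gave several of these 9 libraries, and the fit took the libraries as independent. Its standard errors and p therefore do not measure the spread between mice. Gch1 rose and Nox1 fell, and the other 8 genes did not pass the threshold. Of all genes tested, 4.27% were higher and 2.07% lower past the threshold, against 1 of 10 in each direction here, and the median log2 fold change was 0.28 over the 10 genes and -0.05 over all genes. With the line as a block the count was 3, with Duoxa2 added, beside 5.27% of all genes higher and 1.9% lower. That block uses the doubted pairing of untreated lines 1 and 2. Without the untreated libraries of lines 1 and 2, no gene of the 10 passed (Gch1 log2 fold change 1.41, limma adjusted p = 0.0423, and Nox1 -2.37, adjusted p = 0.0253).

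Against the same untreated libraries, each treated group was then taken alone. The 6 comparisons share these controls and are set side by side, not counted as separate evidence. Direct CAP for 30 min moved none of the 10 genes past the threshold (2 had an unadjusted p under 0.05 in limma, and 0 passed with the organoid line as a block), where 0.00564% of all genes were higher and 0% lower. After direct CAP for 24 h the count was also 0 (3 at an unadjusted p under 0.05, 1 with the block), beside 1.25% of all genes higher and 0.917% lower, and with indirect CAP from day 1 it was 0 (4 at an unadjusted p under 0.05, 1 with the block), beside 0.831% and 0.477%. Of all genes, 4415 of 17731 had an unadjusted p under 0.05 in limma after 30 min. The same limit was met by 5658 of 17335 after direct CAP for 24 h and 6869 of 17818 with indirect CAP from day 1. With PAM from day 1, Gch1 was higher and Nox1 lower, where 4.83% of all genes were higher and 5.4% lower. Indirect CAP from day 2 gave Gch1 higher and Nox1 and Noxa1 lower, beside 6.2% and 5.71%. PAM from day 2 gave Gch1 higher and Nox1, Noxo1 and Noxa1 lower, beside 6.82% and 10.5%. Cyba, Duox2, Duoxa2, Qdpr and Xdh passed in none of the 6 fits.

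The ranges of a group and of the untreated libraries often did not overlap, for all genes as for these. After direct CAP for 30 min, 1 of the 10 genes lay wholly above (Xdh) and 1 wholly below (Qdpr), as did 12.4% and 11.2% of all genes. Gch1 was wholly above and Nox1 wholly below after direct CAP for 24 h (11.6% and 19.1%), and the same held with PAM from day 1, with Qdpr below as well (17.1% and 29.7%). With indirect CAP from day 1, Gch1 and Xdh were above and Nox1 and Qdpr below (16.7% and 17.7%). In the groups from day 2, Gch1 and Nos2 were above and Nox1, Noxa1 and Qdpr below, joined by Noxo1 with PAM, where indirect CAP had 22.7% of all genes above and 25.8% below and PAM had 20.7% and 32.6%. In the 9 libraries together, Gch1 was above (7.16%) and Nox1 below (10.5%).

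At the looser limit of an adjusted p under 0.05 in limma at any fold, the count in the 9 libraries was 3, with Gch1 higher and Nox1 and Qdpr lower (all genes 14.8% and 18.7%), and after 30 min it was 0 (0.00564% and 0%). It was 2 after direct CAP for 24 h, Gch1 and Nox1 (7.05% higher and 10.2% lower), 3 with indirect CAP from day 1, Gch1, Nox1 and Qdpr (10.2% and 10.4%), and 4 with PAM from day 1, Duoxa2 and Gch1 higher and Nox1 and Qdpr lower (15.2% and 26.6%). With both agents from day 2 it was 6, Gch1 and Nos2 higher and Nox1, Noxo1, Noxa1 and Qdpr lower, where indirect CAP had 20.3% and 23.5% of all genes and PAM had 18.5% and 29.1%. With the line as a block and the stricter threshold, the shares of all genes higher and lower were 5.27% and 1.9% in the 9 libraries, 0% and 0% after 30 min, 1.34% and 0.681% after direct CAP for 24 h, 1.36% and 0.449% with indirect CAP from day 1, 3.91% and 3.9% with PAM from day 1, 5.62% and 4.99% with indirect CAP from day 2 and 6.43% and 8.44% with PAM from day 2.

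**Figure D2:**
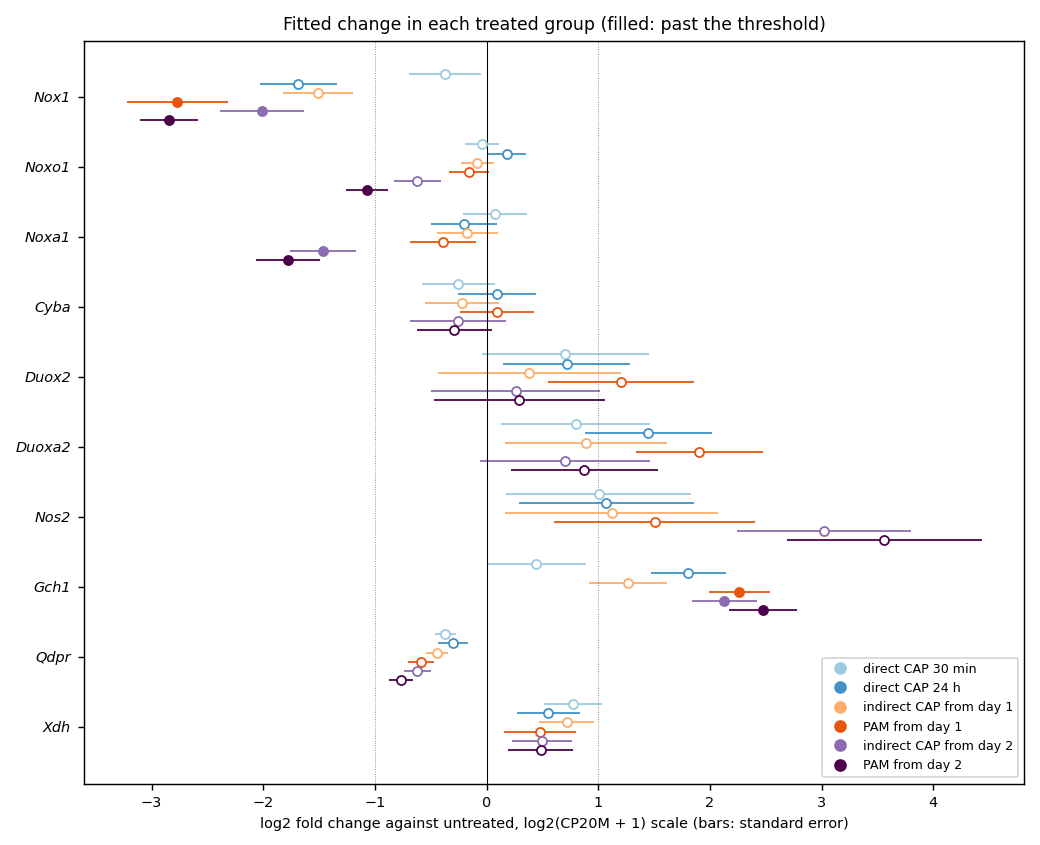
Log2 fold change of each gene against untreated in the 6 treated groups, with the standard error as bars, and filled points past the threshold. Nox1 lies left of 0 and Gch1 right of 0 in all 6 groups, Noxa1 and Noxo1 lie farthest left in the groups from day 2, and the bars of Duox2, Duoxa2 and Nos2 are the widest.

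Nox1, the catalytic subunit, had 1423, 950, 1999 and 1977 CP20M in untreated lines 1, 2, 3 and 4. In the order of lines 1, 2 and 4, it had 768, 1234 and 1709 after direct CAP for 30 min and 292, 488 and 739 after 24 h of it. Indirect CAP from day 1 left 362, 531 and 791, whereas PAM from day 1 left 112, 209 and 467. From day 2, the values were 236, 332 and 684 with indirect CAP and 215, 184 and 237 with PAM. Except after 30 min, every treated library lay below the lowest untreated library, as did 10.5% of all genes in the comparison of 9 with 4 libraries. PAM from day 2 brought the 3 lines to nearly the same value (212 ± 26.6, n = 3), from 1587 ± 502 (n = 4) in untreated organoids.

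The fitted change of Nox1 in the 9 libraries, taken as independent, was -1.99 (SE 0.43, limma adjusted p = 0.00335). It was -2.77 with PAM from day 1 (adjusted p = 0.00202), -2.01 with indirect CAP from day 2 (adjusted p = 0.00352) and -2.84 with PAM from day 2 (adjusted p = 0.000338). Direct CAP for 24 h gave -1.68 (adjusted p = 0.0150) and indirect CAP from day 1 gave -1.51 (adjusted p = 0.0169), both short of the threshold on adjusted p, as was -0.37 (adjusted p = 0.499) after 30 min. The call in the 9 libraries was lost when untreated line 1, 3 or 4 was left out, with an adjusted p of at most 0.0145, and when all libraries of line 4 were left out (-2.24, adjusted p = 0.0105). With indirect CAP from day 2 it was lost without indirect day 2 line 1 or line 2 or untreated line 3 or 4, and held in 3 of 7 such fits. Without both untreated libraries of lines 1 and 2, Nox1 missed the threshold with PAM from day 1 (-3.16, adjusted p = 0.0105) and from day 2 (-3.23, adjusted p = 0.0104) and passed with indirect CAP from day 2 (-2.40, adjusted p = 0.00963).

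The organiser Noxo1 was at 1247, 979, 1412 and 1234 CP20M in untreated lines 1 to 4. Through all groups from day 1 it stayed in and around that range, between 833 in line 1 with PAM and 1777 in line 4 after direct CAP for 24 h. From day 2, lines 1, 2 and 4 had 687, 623 and 1131 with indirect CAP, whereas PAM left 511, 483 and 766. The PAM libraries all lay below the untreated ones, with a log2 fold change of -1.07 (SE 0.19, limma adjusted p = 0.00272). This value sits at the edge of the fold threshold, which it missed with the line as a block (-0.997, adjusted p = 0.00625) and after quantile normalization (-0.88), and the call was lost without PAM day 2 line 1, PAM day 2 line 2 or untreated line 3, and without both untreated libraries of lines 1 and 2 (-1.20, adjusted p = 0.0204). With indirect CAP from day 2 the change was -0.62 (adjusted p = 0.0408).

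The activator Noxa1 was also lower in the groups from day 2. Untreated lines 1 to 4 had 280, 272, 532 and 426 CP20M, and the 12 libraries of the direct groups and the groups from day 1 spanned 224 to 523. From day 2, lines 1, 2 and 4 had 102, 114 and 191 with indirect CAP and 98, 84 and 141 with PAM, all below the lowest untreated library. The changes were -1.47 (SE 0.30, limma adjusted p = 0.00483) and -1.78 (SE 0.29, adjusted p = 0.00187). Without line 4 the former was -1.66 (adjusted p = 0.0112), and it was also lost without indirect day 2 line 1 or line 2 or untreated line 4, while the PAM call held in 7 of 7 fits that left out 1 library but not without both untreated libraries of lines 1 and 2 (-2.17, adjusted p = 0.0126).

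Cyba, the membrane partner, passed the threshold in no group. Its values were 749, 516, 1247 and 1082 CP20M in untreated lines 1 to 4 and ran from 371 to 1440 over the treated libraries, so that treated and untreated ranges overlapped in every group. The fitted changes lay between -0.29 (PAM from day 2, limma adjusted p = 0.507) and 0.09 (direct CAP for 24 h, adjusted p = 0.893), with standard errors of 0.33 to 0.43. Line 4 was the highest line in 6 of 6 treated groups, and line 2 stood above line 1 in 6 of 6. All 6 treated libraries of line 1 were below its untreated library (0.495 to 0.860 times) and all 6 of line 2 above theirs (1.32 to 1.69 times), ratios that rest on the untreated libraries whose pairing is in doubt.

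**Figure D3:**
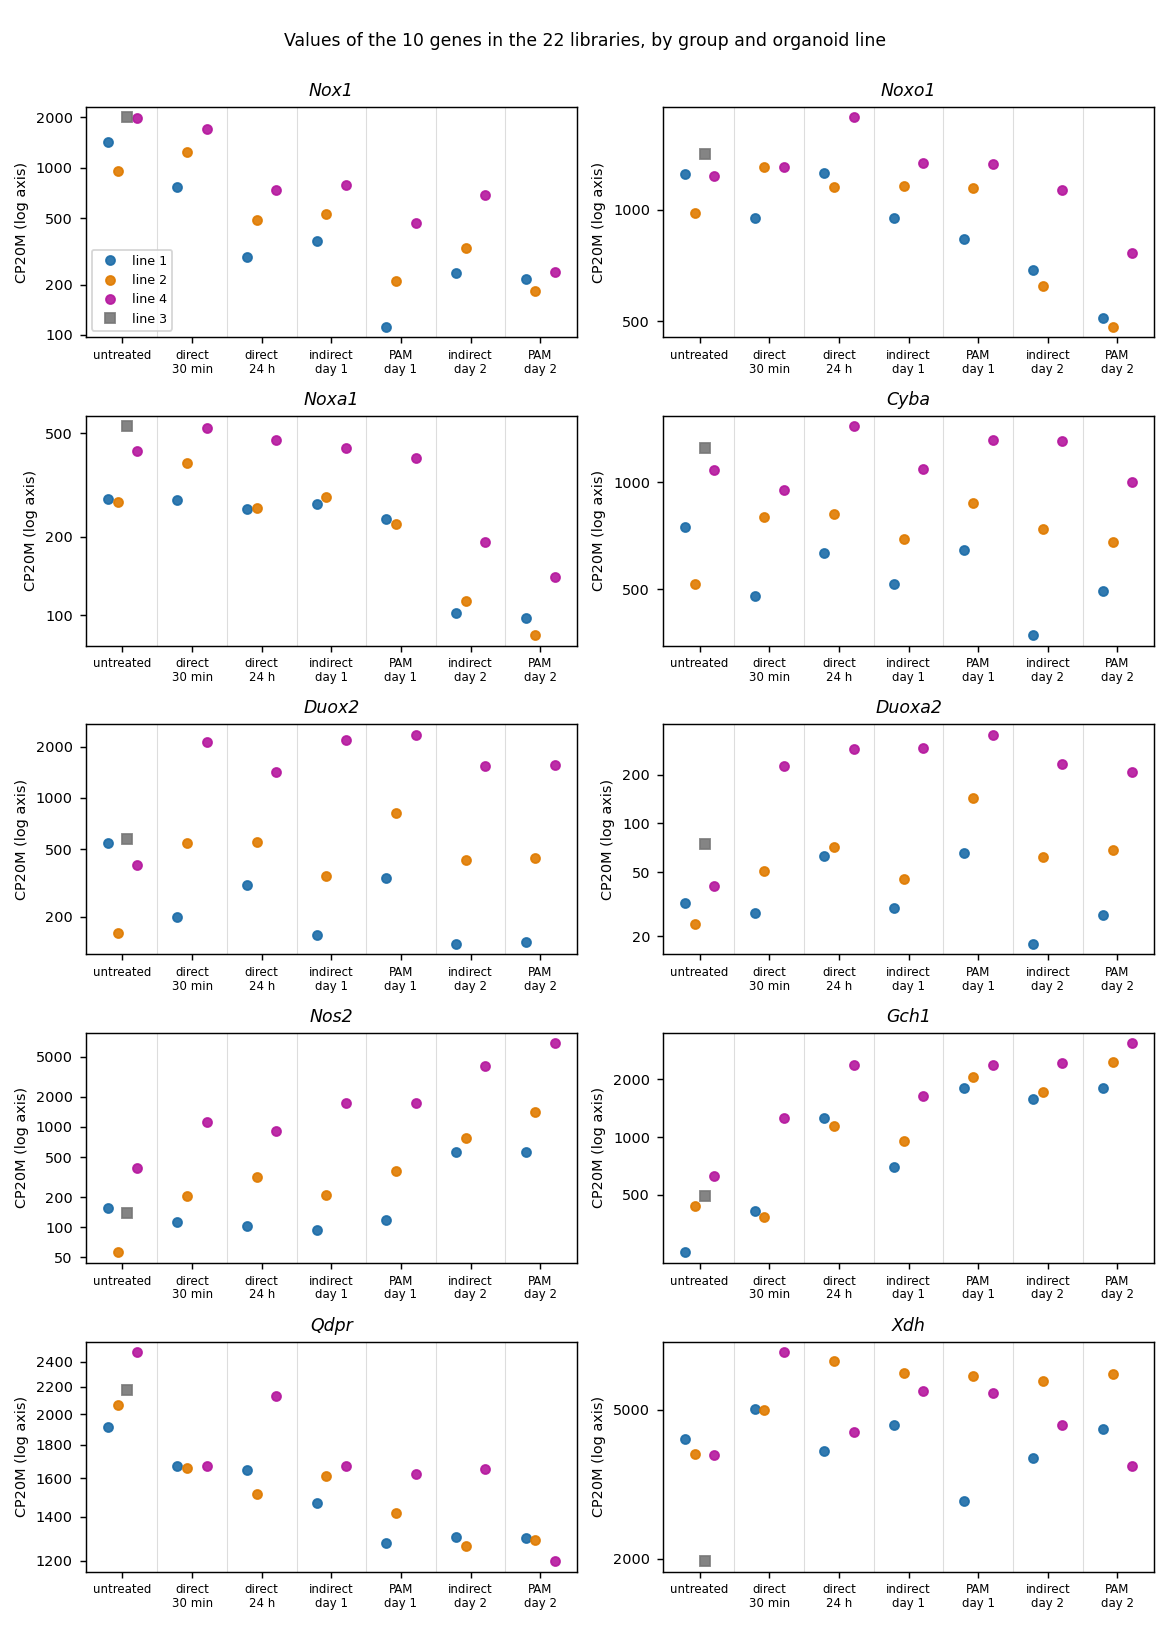
CP20M of the 10 genes (log axes) in every library, by group, with 1 point per organoid line (line 3, untreated only, as squares). Nox1 falls and Gch1 rises in every line once exposure reaches 24 h, Noxo1 and Noxa1 drop in the day 2 groups, and line 4 stands above lines 1 and 2 for Duox2, Duoxa2 and Nos2 in every treated group.

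Duox2, the hydrogen peroxide source, split by line. In lines 1, 2, 3 and 4 the untreated values were 546, 161, 571 and 403 CP20M. Treated line 4 had 2135 after direct CAP for 30 min, 1418 after 24 h, 2180 (indirect CAP) and 2347 (PAM) in the groups from day 1, and 1537 and 1553 in those from day 2. Treated line 1 had 201, 306, 157, 340, 139 and 143 in the same order, and line 2 had 542, 552, 348, 819, 431 and 444. Every treated library of line 4 was above its untreated library (3.52 to 5.82 times) and so was every one of line 2 (2.16 to 5.09 times), while all 6 of line 1 were below theirs (0.255 to 0.623 times).

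In the fits, which did not pair libraries by line, Duox2 had log2 fold changes of 0.26 to 1.20 and standard errors of 0.57 to 0.82. None was past the threshold, and the lowest limma adjusted p was 0.175 with PAM from day 1. The untreated libraries of lines 1 and 2, which resembled the other line more than their own, are the denominators of 2 of the sets of ratios by line. The opposite directions of lines 1 and 2 rest on them, and what this doubt contributes to the split was not tested. The order of the lines needs no untreated library. Line 4 was 4.63 to 13.9 times line 1 over the 6 treated groups, and line 2 stood above line 1 in 6 of 6. Passage, and sex as the study lists it, cannot be told apart from line in the height of line 4.

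Duoxa2, whose product matures DUOX2, was low, at 32, 24, 75 and 41 CP20M in untreated lines 1 to 4. Line 4 had 226 and 287 after direct CAP for 30 min and 24 h, 291 (indirect CAP) and 353 (PAM) in the groups from day 1, and 232 and 208 in those from day 2, which is 5.07 to 8.61 times its untreated library. Lines 1 and 2 ranged from 18 to 66 and from 45 to 144 over the treated groups. In the 9 libraries of 24 h from day 1 the change was 1.41 (SE 0.61, limma adjusted p = 0.0876), and with the line as a block it was 1.72 (SE 0.40, adjusted p = 0.00778) and passed. That block uses the pairing of untreated lines 1 and 2, which is in doubt. Without the block, leaving out the untreated libraries of lines 1 and 2 gave 0.93 (limma adjusted p = 0.474). Leaving out all libraries of line 4 gave 0.67 (adjusted p = 0.319). The change with PAM from day 1 was 1.91 (adjusted p = 0.0265), above those in the other groups, and it did not pass with the block either (2.21, adjusted p = 0.0143).

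Duox2 and Duoxa2 lie head to head on chromosome 2 (GRCm38), with Duox2 at chr2:122279247-122298449 on the minus strand and Duoxa2 at chr2:122298900-122302885 on the plus strand, their starts 451 bases apart. The paralogues Duoxa1 and Duox1 form the same arrangement next to them, with starts 1942 bases apart. Duoxa2 overlaps Duoxa1 by 695 bases on opposite strands, and reads there cannot be assigned if the counting took no account of strand, which is not given in the sources used here. Over the 22 libraries, log2 levels of Duox2 and Duoxa2 had r = 0.950. This is a description, since libraries share lines and groups.

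**Figure D4:**
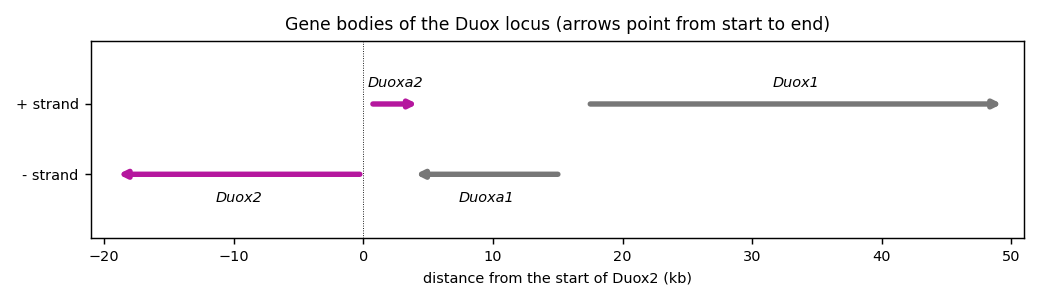
Gene bodies of the Duox locus by strand, in kb from the start of Duox2. Duox2 and Duoxa2 point away from each other with starts 451 bases apart, and the end of Duoxa2 overlaps that of Duoxa1 by 695 bases.

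**Figure D5:**
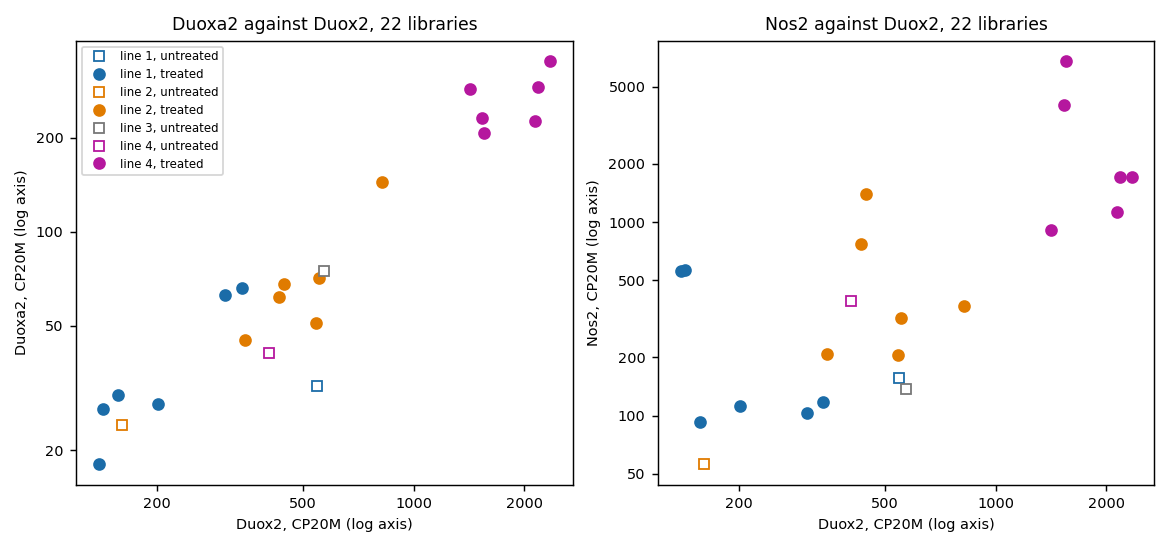
CP20M of Duoxa2 (left) and Nos2 (right) against Duox2 in the 22 libraries, on log axes, coloured by line with untreated libraries open. Duoxa2 follows Duox2 through all lines (r = 0.950), while Nos2 follows it less closely (r = 0.697), with the day 2 libraries of each line above the rest.

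Nos2, which makes nitric oxide, had the widest range of the 10 genes, 122-fold from 56 CP20M in untreated line 2 to 6805 in line 4 with PAM from day 2. Untreated lines 1, 2, 3 and 4 had 156, 56, 137 and 393. In lines 1, 2 and 4, direct CAP gave 112, 205 and 1131 after 30 min and 103, 318 and 915 after 24 h. From day 1, indirect CAP gave 93, 208 and 1711 and PAM gave 117, 367 and 1718. All 4 of these groups overlapped the untreated libraries, since lines 1 and 2 lay within the untreated range in each. Line 1 also stayed below its own untreated value in each.

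From day 2, Nos2 was above the untreated range in every library, at 559, 767 and 4045 with indirect CAP and 567, 1392 and 6805 with PAM in lines 1, 2 and 4. The changes of 3.02 (SE 0.78) and 3.56 (SE 0.87) were the largest of the 10 genes, but with the lines so far apart the limma adjusted p was 0.0143 and 0.0112. With the line as a block they were 2.98 (adjusted p = 0.00354) and 3.53 (adjusted p = 0.00590), both past the threshold, beside 1.90 (SE 0.19) between indirect CAP from day 2 and from day 1. Without the libraries of line 4 both also passed, at 2.61 (adjusted p = 0.00781) and 3.05 (adjusted p = 0.00567), whereas without the untreated libraries of lines 1 and 2 they were 2.37 (adjusted p = 0.0929) and 2.91 (adjusted p = 0.0894). Line 4 was 7.24 to 18.4 times line 1 in the 6 treated groups.

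Gch1, the rate-limiting enzyme of BH4 synthesis, rose most evenly. It was at 251, 438, 495 and 625 CP20M in untreated lines 1 to 4, and at 412, 384 and 1261 in lines 1, 2 and 4 after direct CAP for 30 min. In the same lines it was at 1256, 1139 and 2386 after direct CAP for 24 h, 696, 959 and 1644 with indirect CAP from day 1 and 1806, 2052 and 2380 with PAM from day 1. From day 2, it reached 1581, 1717 and 2440 with indirect CAP and 1805, 2468 and 3079 with PAM. All libraries of these 5 groups lay above the highest untreated library, as did 7.16% of all genes in the 9 libraries against 4, and of the 18 treated libraries only line 2 after 30 min was below its own untreated library (0.877 times).

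The change of Gch1 in the 9 libraries, taken as independent, was 1.78 (SE 0.32, limma adjusted p = 0.00125), and it passed in 13 of 13 fits that each dropped a library. A fit that dropped a treated library kept others of its line. With PAM from day 1 the change of Gch1 was 2.26 (adjusted p = 0.000552), with indirect CAP from day 2 it was 2.13 (adjusted p = 0.000780), and with PAM from day 2 it was 2.48 (adjusted p = 0.000671). Without both untreated libraries of lines 1 and 2, the last missed the threshold (2.10, adjusted p = 0.0126), and the other two passed it (1.89, adjusted p = 0.00237, and 1.75, adjusted p = 0.00331). Direct CAP for 24 h, at 1.81, and indirect CAP from day 1, at 1.26, missed the threshold (adjusted p = 0.0116 and 0.0374) and passed it with the line as a block (1.88, adjusted p = 0.00439, and 1.33, adjusted p = 0.00491). That block uses the doubted pairing of untreated lines 1 and 2. Without those untreated libraries and without the block, the changes were 1.44 (limma adjusted p = 0.0761) and 0.89 (adjusted p = 0.152). After 30 min the change was 0.44 (SE 0.44, adjusted p = 0.563), with a rise in line 1 (1.64 times) and line 4 (2.02 times) and no rise in line 2.

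Qdpr, which regenerates BH4, moved the other way by a smaller amount. The untreated values of 1910, 2068, 2177 and 2485 CP20M in lines 1 to 4 were above those of every treated library but 1, line 4 after direct CAP for 24 h at 2128. After 30 min of direct CAP, lines 1, 2 and 4 had 1669, 1657 and 1669, almost the same value. The group mean was lowest with PAM from day 2 (1264 ± 56.5, n = 3), where the lines had 1301, 1292 and 1199. The fitted falls had adjusted p under 0.01 in limma in the 9 libraries (-0.44, adjusted p = 0.00797), with PAM from day 1 (-0.59, adjusted p = 0.00473), with indirect CAP from day 2 (-0.62, adjusted p = 0.00432) and with PAM from day 2 (-0.77, adjusted p = 0.00105), but all were below the fold threshold.

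Xdh, which oxidises hypoxanthine and xanthine to uric acid and can pass electrons to oxygen, had 4179, 3804, 1971 and 3788 CP20M in untreated lines 1 to 4. After direct CAP for 30 min, lines 1, 2 and 4 had 5029, 4980 and 7127, all above the untreated libraries, as were 12.4% of all genes in that comparison. With indirect CAP from day 1 they had 4548, 6258 and 5608, again all above. In the other groups the ranges overlapped, with line 1 between 2852 and 4449 and line 2 between 5964 and 6723. The changes ran from 0.48 to 0.77 over the 6 groups, and the lowest limma adjusted p was 0.0724, with indirect CAP from day 1. Untreated line 3, at 1971, was the lowest library of all 22.

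Treated groups were also set against each other. In fits without the line as a block, no gene of the 10 passed in any of 4 comparisons, and over all genes the shares past the threshold were 0% higher and 0% lower, apart from 0.0111% higher between indirect CAP from day 2 and from day 1. At an unadjusted p under 0.05 in limma there were 2 of the 10 between direct CAP for 24 h and 30 min, 0 between PAM from day 1 and direct CAP for 24 h, and 2 in each comparison of day 2 with day 1. Of all genes, 3774 of 17668 and 1773 of 17072 met that limit in the first and second of these comparisons. Between day 2 and day 1 it was 3906 of 17987 with indirect CAP and 4651 of 17354 with PAM. With the line as a block, where the pairing rests on treated libraries alone, Nox1 was lower after 24 h than after 30 min of direct CAP (-1.31, SE 0.12, adjusted p = 0.00150) and Gch1 higher (1.36, SE 0.16, adjusted p = 0.00350), beside 0.549% of all genes higher and 0.583% lower. Each line went that way, since Nox1 after 24 h was 0.380, 0.395 and 0.432 times its level after 30 min in lines 1, 2 and 4.

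PAM from day 1 gave less Nox1 than direct CAP for 24 h with the block (-1.09, SE 0.16, limma adjusted p = 0.00868), where 0.281% of all genes were lower. Between indirect CAP from day 2 and from day 1, Noxa1 was lower (-1.29, SE 0.12, adjusted p = 9.11e-05) and Nos2 higher (1.90, SE 0.19, adjusted p = 0.000150), beside 2.31% of all genes lower and 1.15% higher. Gch1 differed there by 0.86 (adjusted p = 0.000485), short of the fold threshold. Between PAM from day 2 and from day 1, no gene of the 10 passed with the block, where 0% of all genes did, although Noxa1 differed by -1.39 and Nos2 by 2.06, and Noxa1 passed with all 7 groups in one fit (adjusted p = 0.00815).

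Over the 22 libraries, which share lines and groups, log2 levels of Noxo1 and Noxa1 had r = 0.917, Nox1 and Qdpr 0.846, Cyba and Duox2 0.872, Nos2 and Gch1 0.738, and Nox1 and Gch1 -0.645. Of 19370 genes that passed the filter, the 5 outside these 10 with a pattern most like that of Nox1 were Cdx1 (r = 0.932), a transcription factor of intestinal identity, Ctdspl, Barx2, Slc23a4 and Gm20559. After Duoxa2, Duox2 was most like Duoxa1 (0.940), Sgsm1, Pdzrn3, Zc3h12a and Duox1 (0.879), so its paralogue pair was among the 5. Nos2 was most like Etv3 (0.935), Tfe3, Pfkfb3, Kbtbd11 and Nfkbia (0.903), the inhibitor of NF-kB. Gch1 was most like the chemokine Cxcl16 (0.976), Zmynd15, Rhod, Ifnlr1 and Rab31.

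Among 11 other genes of the NADPH oxidase family, 5 or 6 passed the filter on low values and none was past the threshold except with PAM from day 2. There 2 were higher, among them the cytosolic phagocyte subunit Ncf1 (1.85, limma adjusted p = 0.00320), which went from 2.5 to 11.3 CP20M, values that rest on few reads, and passed the filter in no other comparison with untreated. Duox1 and Duoxa1 were low in untreated organoids, at 9.0 and 19.5, and past the threshold in no group. The catalytic subunits Cybb, Nox4 and Nox3 were at 0.5, 1.0 and 0, below the filter. Rac1, the GTPase that NOX1 needs, had 5170 CP20M in untreated organoids and 4703 with PAM from day 2.

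Of 13 other genes of nitric oxide and arginine, 12 were tested. Arg2, a mitochondrial arginase that uses the same substrate as Nos2, fell, from 4251, 5390, 5030 and 3315 CP20M in untreated lines 1 to 4 to 617, 986 and 300 in lines 1, 2 and 4 with indirect CAP from day 2 (-2.96, SE 0.36, limma adjusted p = 0.000427). Its change was -1.33 (adjusted p = 0.00416) in the 9 libraries, -1.91 (adjusted p = 0.00236) with PAM from day 1 and -2.91 (adjusted p = 0.00982) with PAM from day 2. Nos3, the endothelial synthase, rose from a low 38.8 to 95.3 CP20M with PAM from day 1 (1.27, adjusted p = 0.00657), and Ddah2, which breaks down methylated arginine inhibitors of the synthases, was higher with PAM from day 2 (1.75, adjusted p = 0.00548). The other 9 tested genes passed in none of the 7 comparisons with untreated.

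Of 6 other BH4 genes, none was higher past the threshold in any comparison. Pts, which follows Gch1 in the pathway, was lower with PAM from day 2 (-1.09, limma adjusted p = 0.00652), as was Pcbd1 (-1.16, adjusted p = 0.00177), whose product works in BH4 recycling beside Qdpr. Spr, the last step of synthesis, had 2084 CP20M in untreated organoids and 1473 with PAM from day 2, and Gchfr, the feedback regulator of Gch1, 61.0 and 49.3, neither past the threshold.

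Of 9 other purine breakdown genes, 5 were tested. Ada, adenosine deaminase, rose from 250, 241, 406 and 327 CP20M in untreated lines 1 to 4 to 1883, 3422 and 2223 in lines 1, 2 and 4 with PAM from day 1 (3.02, SE 0.24, limma adjusted p = 0.000125). It also passed in the 9 libraries (1.94, adjusted p = 0.00613), after direct CAP for 24 h (1.73, adjusted p = 0.00891) and with PAM from day 2 (1.68, adjusted p = 0.00856). Gda, guanine deaminase, which gives xanthine, the substrate of Xdh, rose in the 9 libraries (1.94, adjusted p = 0.00103) and with PAM from day 1 (2.15, adjusted p = 0.00340). None of the 12 genes of the inflammatory induction list, which holds Irf1, Nfkb1, Nfkbia and Lcn2, passed in any comparison with untreated, and 9 or 10 of them were tested.

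Markers of stem cells and other cells moved with several of these results. Over 5 markers (Lgr5, Olfm4, Smoc2, Axin2 and Ascl2), the summed level was 32557 to 38876 CP20M in untreated organoids, 20274 to 32015 after direct CAP for 30 min, 5313 to 15040 after direct CAP for 24 h and with indirect CAP from day 1, 1306 to 2640 with PAM from day 1, 2703 to 3953 with indirect CAP from day 2 and 757 to 2747 with PAM from day 2. All 5 were lower past the threshold in the last 3 groups, where Nox1 was also lower. Of 5 enterocyte markers, whose summed level was 72729 to 90988 CP20M in untreated organoids, 89008 to 92835 with indirect CAP from day 2 and 116409 to 131648 with PAM from day 2, Alpi was higher in both groups from day 2 (1.07, limma adjusted p = 0.00829, and 1.42, adjusted p = 0.00240), while Apoa1 (-2.22, adjusted p = 0.000237) and Anpep (-2.29, adjusted p = 0.00953) were lower with indirect CAP. The stromal marker Vim was also lower there (-1.43, adjusted p = 0.00421), at 14.3 against 39.8 CP20M. The immune marker Cd68 was higher with PAM from day 1 (1.57, limma adjusted p = 0.00238) and from day 2 (1.23, adjusted p = 0.00900), but at 66.0 and 52.3 CP20M it stayed far below Gch1. Cd68 also passed in the 9 libraries (1.35, limma adjusted p = 0.000427). It missed the threshold after direct CAP for 24 h (1.28, adjusted p = 0.0166) and with indirect CAP from day 1 (1.19, adjusted p = 0.0167). The part of any of these in the results for the 10 genes was not tested.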

How the data were processed

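As the study and the submitters' processing notes state, the authors trimmed reads with Trimmomatic 0.36, aligned them to GRCm38 with STAR 2.5.3a, counted them on Ensembl genes with HTSeq 0.9.1 and tested counts with edgeR. The authors deposited 1 score for each gene in each library, called CP20M. In the table these are whole numbers that sum to between 20007540 and 20016513 per library, with the spacing of read counts multiplied by 1 factor, rounded up and not divided by length. Raw counts were not used here. That spacing gave an estimated 19.76 to 28.68 M reads per library (median 22.54).

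log2(value + 1) was tested with limma's trended moderated test (R 4.3.3, limma 3.58.1) over genes with at least 10 in at least 3 of the libraries compared, with Benjamini-Hochberg adjustment. Genes past the threshold had an adjusted p below 0.01 and changed by 1 or more on the log2 scale, limits taken from the study. The method was tested on simulated data of independent libraries with no differences between lines. The lines recur and differ in the data here, so that test does not give the error rates of these fits. Libraries were grouped by their labels, and those with the same line number came from the same mouse. Treated libraries of 1 line correlated over 45 pairs at r = 0.219 to 0.806 after group means were removed, so the line was a replicate block in an alternative. For untreated lines 1 and 2 that pairing is in doubt. Figures and sequence searches used Python 3.11.15 and matplotlib 3.10.9. Positions are from GENCODE vM21 (GRCm38) and sequences from RefSeq. The named genes are the 10 in every comparison, those of the related lists that pass the threshold or complete a pair, and the 5 genes most correlated with Nox1, Duox2, Nos2 and Gch1. A few list genes are not reported here. Genes, lists and tests were chosen with earlier results of these data known. The alternatives changed the scaling (quantile normalization), the pseudocount (to 10), the filter (none), the libraries fitted (all 7 groups at once, each library left out, line 4 left out), the block, and the threshold (0.05 on adjusted p, any fold). Leaving out the untreated libraries of lines 1 and 2 was added after the data were seen.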

Additional observations from a re-analysis of the deposited data

Results flagged for a closer look

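Among the 9 libraries of 24 h exposure begun on day 1, the highest value of Qdpr, 2128 CP20M in line 4 after direct CAP for 24 h, lay far from the others, with a gap to the next library of 0.538 of the whole range. Chance flags about 1 in 20 groups of independent libraries in this way, but these 9 shared lines 1, 2 and 4, so that rate does not hold here. Line 4 was also the highest untreated line for Qdpr (2485 CP20M), and the flagged library was 0.856 times that.

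Effects of different exposures differed in 5 cases by limma with the line as a block, all in the same direction in lines 1, 2 and 4. For direct CAP, 24 h against 30 min gave a log2 difference of -1.31 for Nox1 (adjusted p = 0.00150) and 1.36 for Gch1 (adjusted p = 0.00350). For Nox1, PAM from day 1 against direct CAP for 24 h gave -1.09 (adjusted p = 0.00868). Indirect CAP from day 2 against day 1 gave -1.29 for Noxa1 (adjusted p = 9.11e-05) and 1.90 for Nos2 (adjusted p = 0.000150). Without the block none of the 5 passed the threshold.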

How the results depend on the processing

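Of 84 recomputed counts of the 10 genes past the threshold, besides those that left out 1 library, 68 stayed within 1.5 times the reported count. Many of the 68 were counts of 0 that stayed 0, often where few or no genes of all passed. Such counts say little about stability. With the line as a replicate block, the count rose from 0 to 1 for direct CAP for 24 h and for indirect CAP from day 1 against untreated, from 0 to 2 between direct CAP for 24 h and 30 min, from 0 to 1 between PAM from day 1 and direct CAP for 24 h, and from 0 to 2 between indirect CAP from day 2 and day 1. Taking every adjusted p below 0.05, whatever the fold, gave 2 for direct CAP for 24 h, 3 for indirect CAP from day 1, 4 for PAM from day 1 and 6 for indirect CAP from day 2. Quantile normalization gave 1 for direct CAP for 24 h, and all 7 groups in one fit gave 1 there and 1 between PAM from day 2 and day 1. Leaving out line 4 gave 1 in the 9 libraries. Without the untreated libraries of lines 1 and 2, which left 2 controls, the count was 0 in the 9 libraries, 1 with PAM from day 1 and 0 with PAM from day 2 (4 as reported). Leaving out each library in turn gave 1 to 2 in the 9 libraries, 2 to 3 with PAM from day 1, 1 to 3 and 3 to 4 with indirect CAP and PAM from day 2, and 0 to 0 elsewhere. For single genes, 1574 of 1630 values kept their side of the threshold, 32 gained it and 24 lost it, and the 95 that changed sign were past it in no fit. Most of the 1574 were short of the threshold in the reported fit and in the alternative. The cause of these changes was not tested. Quantile normalization shifted the median of all genes by 0.118 with PAM from day 2, and the fold change of Noxo1 there was -0.88 after that normalization. Genes near 20 CP20M are limited by depth.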
